A study of Mus musculus with 6 samples.

Results

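In Rras2(Q72L) mouse fibrosarcoma cells 10 genes of the hypoxia response were followed. Of these, 1 (10%) changed past the threshold when Rras2 was knocked down, against 5.21% of all genes. That gene was Egln3, an oxygen-sensing hydroxylase gene, whose signal fell to 51.7% of the control level (95% interval 42.8 to 62.5%). The 10 genes were taken by name as the HIF alpha subunit gene Hif1a, the HIF prolyl hydroxylase genes Egln1, Egln2 and Egln3, and the hypoxia-inducible genes Bnip3, Ndrg1, Car9, Ankrd37, Adm and P4ha1. All 10 were found among the 19505 genes of the array, each through the brightest probe set of its symbol.

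The study compared 2 groups of 3 Affymetrix arrays, 1 array per sample. The shRras2 arrays (replicates 4 to 6) came from cells transduced with a vector for 1 shRNA against Rras2, called sh#89, and the pLKO arrays (replicates 1 to 3) from cells given the pLKO control vector. All 6 samples share the C57BL/6 background and the Q72L form of Rras2, which encodes a GTPase of the RAS family, and were cultured in DMEM with fetal bovine serum; the labels name no oxygen condition. With a single shRNA, effects on other targets cannot be told apart from the loss of Rras2. The labels do not say whether the arrays of a group come from separate cultures. The p-values set the group difference against the spread among arrays, which within a group may be only technical. They speak for these samples only. Replicate numbers do not cross the groups, so anything that follows the numbers cannot be told apart from the knockdown either.

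HIF transcription factors pair an oxygen-labile alpha subunit with the stable subunit ARNT. When oxygen is present, the EGLN enzymes hydroxylate prolines of the alpha subunit, the VHL ubiquitin ligase then binds it and it is degraded. When oxygen is short the subunit lasts, moves to the nucleus and raises genes for glucose uptake, glycolysis, mitophagy, matrix hydroxylation, pH control and vessel tone. Because this control acts on protein, the RNA level of Hif1a does not report HIF activity.

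Rras2, the targeted gene, had log2 RMA signals of 9.09, 9.69 and 9.21 on the shRras2 arrays, against 10.67, 10.75 and 10.82 on the pLKO arrays. The difference was -1.41 ± 0.14 (SE; limma adjusted p = 0.00163). Replicate 5 kept the most Rras2 signal, 48.1% of the pLKO mean, against 31.8% and 34.6% on replicates 4 and 6. Of all genes 584 rose and 433 fell past the threshold (limma adjusted p under 0.05). With arrays centred on their medians 506 rose and 567 fell past it. Of the marker genes fixed as a check of the cells, 8 of 13 fibroblast markers exceeded the 95th percentile of the negative-control probe sets (7.92) in their brighter group, as did 12 of 18 skeletal muscle markers and 0 of 9 macrophage, 0 of 8 endothelial and 0 of 8 epithelial markers. By group mean, 12 of the muscle markers exceeded it in shRras2 cells and 2, Pax7 and Actc1, in pLKO cells, against 8 fibroblast markers in both. Dcn, Lum, Fap, Thy1 and Col1a2, all fibroblast markers, did not exceed it.

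**Figure D1:**
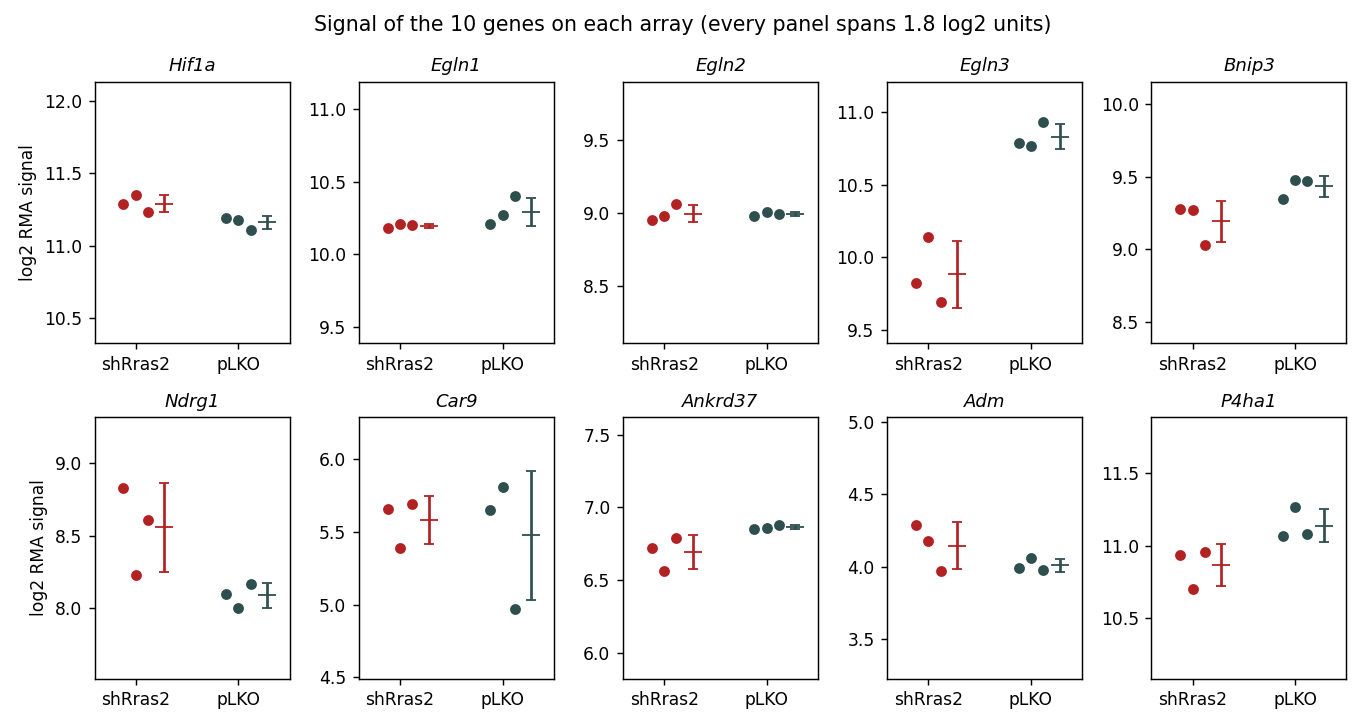
Log2 RMA signal of the 10 genes on each array, shRras2 (red, left) and pLKO (dark, right) in every panel, with the mean and SD beside the 3 points; each panel has its own axis but the same span of log2 units. Egln3 shows the widest gap, 9.69 to 10.14 on the shRras2 arrays against 10.77 to 10.93 on the pLKO arrays, while Egln1, Egln2, Car9 and Adm overlap between the groups.

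Hif1a had signals of 11.29, 11.35 and 11.23 on the shRras2 arrays, against 11.19, 11.18 and 11.11 on the pLKO arrays. All 3 shRras2 values lay above all 3 pLKO values, but the difference of 0.13 ± 0.08 did not pass (SE; limma adjusted p = 0.409, 95% interval -0.04 to 0.30). The data thus leave room for a Hif1a RNA level from 97.1% to 123% of the pLKO level.

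Of the 3 hydroxylase genes Egln3 fell, and Egln1 and Egln2 did not pass the threshold. EGLN1, also called PHD2, is the main HIF prolyl hydroxylase in most cells, and EGLN2 (PHD1) is largely nuclear. EGLN3 (PHD3) is induced by HIF in hypoxia. Whether HIF also induces Egln1 or Egln2 was not examined here, so this trait is not read as setting Egln3 apart. Egln1 had signals of 10.18, 10.21 and 10.20 on the shRras2 arrays, against 10.21, 10.27 and 10.40 on the pLKO arrays. Egln2 had signals of 8.95, 8.98 and 9.06 on the shRras2 arrays, against 8.98, 9.01 and 8.99 on the pLKO arrays. The groups overlapped for both genes. The difference was -0.10 ± 0.08 for Egln1 (SE; limma adjusted p = 0.565, 95% interval -0.28 to 0.08) and 0.00 ± 0.07 for Egln2 (limma adjusted p = 0.994, 95% interval -0.17 to 0.17).

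Egln3 had signals of 9.82, 10.14 and 9.69 on the shRras2 arrays, against 10.79, 10.77 and 10.93 on the pLKO arrays. Its highest shRras2 array lay 0.63 log2 units below its lowest pLKO array, a gap wider than the range of either group (0.45 and 0.16). Egln3 averaged 9.88 ± 0.23 in shRras2 cells and 10.83 ± 0.09 in pLKO cells (SD, n = 3 each), and the difference of -0.95 ± 0.12 passed the threshold (SE; limma adjusted p = 0.00368). The exact two-sided permutation test over the 6 arrays gave p = 0.1, the lowest value that 3 arrays against 3 allow. Of the 433 genes that fell, 26 fell by more than Egln3. The call held in all 6 fits that left out 1 array, with differences from -1.08 to -0.85 and limma adjusted p-values up to 0.0242. Its call means that 1 of the 10 genes passed, against 5.21% of all genes in either direction, 2.22% lower and 2.99% higher.

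Whether the change in Egln3 differed from those in its paralogs was tested on the within-array log2 differences. Egln3 minus Egln1 averaged -0.31 ± 0.22 on the shRras2 arrays and 0.54 ± 0.04 on the pLKO arrays (SD, n = 3 each), which gives a difference of the changes of -0.85, and the 2 groups did not overlap. For Egln3 minus Egln2 the averages were 0.89 ± 0.27 on the shRras2 arrays and 1.84 ± 0.09 on the pLKO arrays, and the difference of the changes was -0.95. Both exact two-sided permutation tests gave p = 0.1 (0.1 after adjustment over the 2 comparisons), the smallest the design allows, so neither can pass a threshold of 0.05. Only the difference between the groups is read from these values, since signals of different probe sets are not on 1 scale.

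Egln3 was least reduced on the array with the most Rras2 left. It kept 49.4%, 61.9% and 45.2% of its pLKO mean on replicates 4, 5 and 6, and replicate 5 was also the array with the highest Rras2 signal of the knockdown group. Replicates 4 and 6 stood in the opposite order for the 2 genes. Replicate 5 also lay nearest the pLKO arrays for other called genes, such as the muscle marker Myl1 (10.25, against 11.08 and 10.90 on replicates 4 and 6). For P4ha1 it lay farthest from them. Whether the Egln3 values follow Rras2 or a general trait of this array was not tested. Skeletal muscle markers moved with the groups too: 13 of 18 rose, 0 fell, and their summed linear signal was 6879 to 11493 on the shRras2 arrays, against 2303 to 2583 on the pLKO arrays. Among the fibroblast markers 5 of 13 rose, with a summed linear signal of 35610 to 36612 on the shRras2 arrays, against 32004 to 32796 on the pLKO arrays. The count of fibroblast marker calls was 0 without shRras2 replicate 4 or 6 or pLKO replicate 3. It was 2 without pLKO replicate 1, 3 without pLKO replicate 2 and 5 without shRras2 replicate 5. For the muscle markers, 10 to 14 were called across the 6 fits without 1 array. In a bulk sample, fewer cells that express a gene and less RNA per cell cannot be told apart. The part of these markers in the Egln3 result was not tested.

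**Figure D2:**
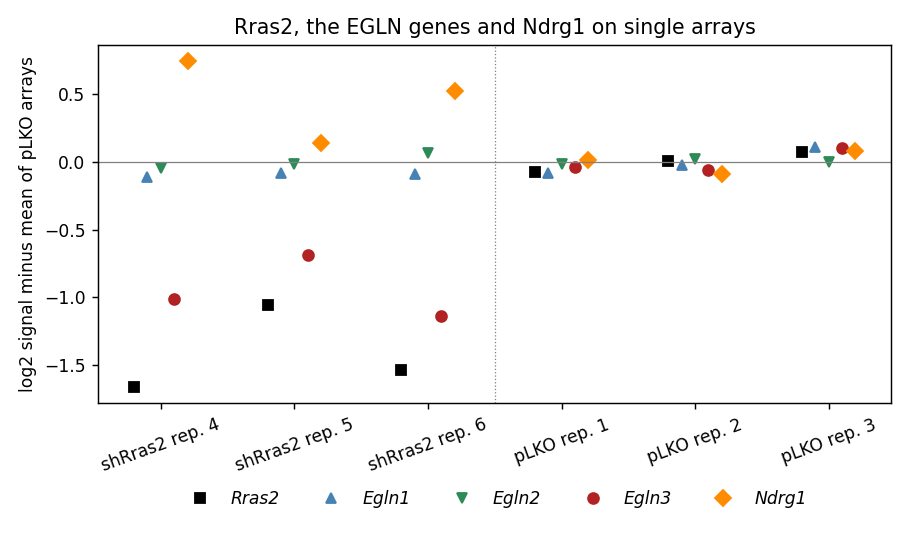
Log2 signal of Rras2, the 3 EGLN genes and Ndrg1 on each array, as the difference from that gene's mean over the pLKO arrays (vertical axis), with the shRras2 arrays on the left and symbols shifted sideways so that they can be told apart. Egln3 and Rras2 lie below 0 on all 3 shRras2 arrays and least so on replicate 5, where Ndrg1 is also nearest its pLKO mean, and Egln1 and Egln2 stay near 0.

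Among the genes searched, those whose centred profile over the 6 arrays lay nearest to that of Egln3 were Zdhhc2 (0.227), Eps8 (0.250) and Flvcr1 (0.252). The distance was Euclidean, in log2 units. Left out of the search were Rras2, predicted and unnamed genes, and genes with both group means under the negative-control percentile. Zdhhc2 encodes a protein palmitoyltransferase, Eps8 an actin-regulating substrate of growth factor receptors and Flvcr1 a membrane transporter. Eps8 had signals of 9.55, 10.08 and 9.75 on the shRras2 arrays, so its knockdown value too was highest on replicate 5. The 3 genes were picked for this likeness, and their differences of -0.95, -0.96 and -0.96 follow from it.

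The promoters of Egln3 and Egln1 are shown because Egln3 passed the threshold and its paralog did not. HIF binds a short core, so the letters ACGTG and GCGTG were searched on both strands in RefSeq windows of GRCm38.p6 from 250 bases before to 50 after each annotated start. Matches are in capitals, and a CACGTG counts on both strands.

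Egln3, chr12:54203825-54204124, minus strand: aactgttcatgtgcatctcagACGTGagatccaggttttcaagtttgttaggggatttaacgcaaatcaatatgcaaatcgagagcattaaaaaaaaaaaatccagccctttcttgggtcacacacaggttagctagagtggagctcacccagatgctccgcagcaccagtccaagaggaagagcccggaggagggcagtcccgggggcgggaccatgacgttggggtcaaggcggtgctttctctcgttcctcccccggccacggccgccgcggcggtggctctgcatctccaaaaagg

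Egln1, chr8:124949205-124949504, minus strand: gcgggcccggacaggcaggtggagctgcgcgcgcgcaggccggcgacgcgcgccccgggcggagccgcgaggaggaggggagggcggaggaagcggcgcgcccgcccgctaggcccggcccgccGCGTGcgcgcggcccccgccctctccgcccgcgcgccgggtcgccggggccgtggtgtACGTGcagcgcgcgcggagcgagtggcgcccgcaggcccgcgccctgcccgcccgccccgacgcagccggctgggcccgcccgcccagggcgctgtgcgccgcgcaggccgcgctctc

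The Egln3 window held 1 match, an ACGTG that begins 229 bases before the start. The Egln1 window held a GCGTG that begins 126 bases before the start and an ACGTG that begins 68 bases before it. Of the 10 genes, 9 had at least 1 window (10 windows in all, 2 of them for Egln2), and all 10 windows held at least 1 match. Of the 19143 windows of all tested genes 50.9% did, so a match is common. ACGTG was in 8 of the 10 windows, against 21.4% of all windows, and GCGTG in 7, against 40.0%. In 75 windows of other genes known to be raised in hypoxia, a list followed below, the shares were 48.0% and 60.0%. The 10 genes were picked by name as hypoxia genes, so these shares describe that choice and are not a result of the knockdown. A match describes these letters and is not a bound site, and sites outside the window were not searched.

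No common direction was seen among the 6 hypoxia-inducible genes, and none of them passed the threshold. Bnip3, P4ha1 and Ankrd37 were lower on every shRras2 array than on any pLKO array. Ndrg1 was higher on every one, and Car9 and Adm overlapped. With no call, and with Ankrd37, Car9 and Adm dim, these values cannot decide whether the 6 genes moved together. Counted over all 10 genes, the groups did not overlap for 6, of which 4 were lower (Egln3, Bnip3, Ankrd37 and P4ha1) and 2 higher (Hif1a and Ndrg1), against 25.5% of all genes, 13.9% lower and 11.6% higher. An unadjusted limma p under 0.05 was found for 4 of the 10, Egln3, Ndrg1, P4ha1 and Bnip3, against 19.1% of all genes. The median log2 difference of the 10 genes was -0.05, and that of all genes -0.01. The members were chosen with earlier results known, and these shares are descriptions.

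Bnip3 encodes a mitochondrial outer membrane protein that links mitochondria to autophagosomes. Its signals were 9.28, 9.27 and 9.03 on the shRras2 arrays, against 9.35, 9.48 and 9.47 on the pLKO arrays. The gap between replicate 4 and the lowest pLKO array was small, and the difference of -0.24 ± 0.09 did not pass (SE; limma adjusted p = 0.208, 95% interval -0.45 to -0.02). Its window is shown as that of the inducible gene with the most matches.

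Bnip3, chr7:138909457-138909756, minus strand: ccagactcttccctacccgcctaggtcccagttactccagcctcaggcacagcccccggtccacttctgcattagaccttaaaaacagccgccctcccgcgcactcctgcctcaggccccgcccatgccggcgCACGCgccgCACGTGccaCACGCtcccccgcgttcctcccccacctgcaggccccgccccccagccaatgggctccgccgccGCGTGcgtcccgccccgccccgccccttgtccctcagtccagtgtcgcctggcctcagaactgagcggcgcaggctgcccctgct

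It held 5 matches, which begin between 117 and 35 bases before the start, 2 of them the strands of 1 CACGTG.

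P4ha1 encodes the catalytic alpha subunit of collagen prolyl 4-hydroxylase, an enzyme that, like the EGLN proteins, uses oxygen and 2-oxoglutarate, but acts on procollagen. Its signals were 10.94, 10.70 and 10.96 on the shRras2 arrays, against 11.07, 11.27 and 11.08 on the pLKO arrays. Replicate 5 was the lowest, unlike for Egln3. The difference of -0.27 ± 0.10 did not pass (SE; limma adjusted p = 0.178, 95% interval -0.50 to -0.04). With a variance trend and robust settings it did pass (limma adjusted p = 0.0346).

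Ndrg1, a stress-induced gene linked to differentiation and to low metastatic spread, was the member that lay higher in the knockdown by the widest margin. Its signals were 8.83, 8.23 and 8.61 on the shRras2 arrays, against 8.10, 8.00 and 8.17 on the pLKO arrays. Replicate 5 lay only slightly above the highest pLKO array, and the knockdown arrays spread over 0.61 log2 units, against 0.18 for the pLKO arrays. The difference of 0.47 ± 0.14 did not pass (SE; limma adjusted p = 0.109, 95% interval 0.14 to 0.79). It was 0.63 without shRras2 replicate 5 and passed there (limma adjusted p = 0.0142), as it did with array weights (adjusted p = 0.0486) and with the variance trend and robust settings (adjusted p = 0.0284).

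The other 3 inducible genes were dim: in both groups their means lay under the negative-control percentile, where a change can go unseen. Ankrd37, a small ankyrin-repeat protein gene, had signals of 6.72, 6.56 and 6.79 on the shRras2 arrays, against 6.85, 6.86 and 6.88 on the pLKO arrays. Car9 encodes carbonic anhydrase IX, a membrane enzyme that acidifies the space outside hypoxic tumor cells. Car9 had signals of 5.66, 5.39 and 5.69 on the shRras2 arrays, against 5.65, 5.81 and 4.97 on the pLKO arrays. Adm, the gene of the vasodilator peptide adrenomedullin, had signals of 4.29, 4.18 and 3.97 on the shRras2 arrays, against 3.99, 4.06 and 3.98 on the pLKO arrays, below the negative-control median of 5.02. Their differences were -0.17 ± 0.08, 0.11 ± 0.20 and 0.14 ± 0.10 (SE), with limma adjusted p-values of 0.312, 0.833 and 0.51. Without pLKO replicate 3, the lowest array for Car9, the Car9 difference was -0.14.

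**Figure D3:**
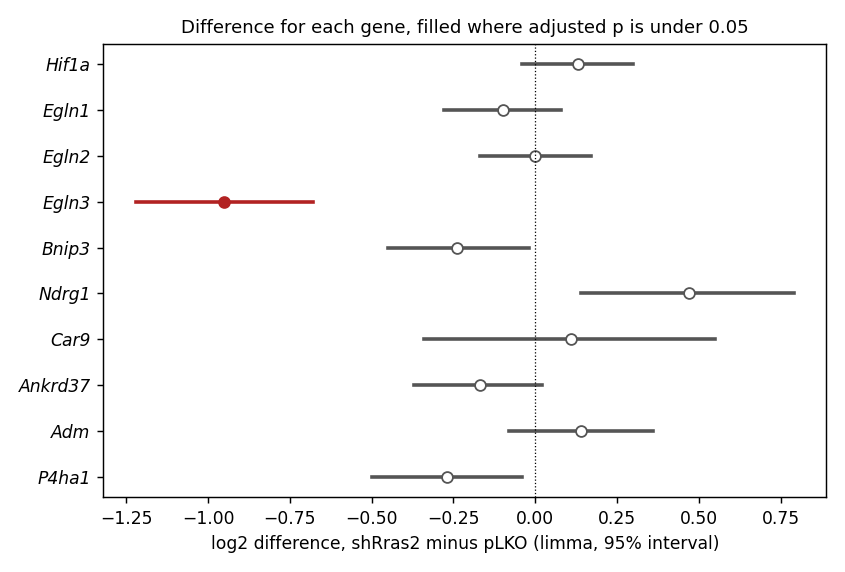
Log2 difference, shRras2 minus pLKO, for each of the 10 genes with limma's 95% interval (horizontal axis); a filled red point marks a limma adjusted p under 0.05. Egln3 stands at -0.95 and is the only filled point, and the intervals of Bnip3, P4ha1 and Ndrg1 leave out 0 although their adjusted p-values are above the threshold.

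Other parts of the oxygen-sensing machinery were taken from a list of 25 genes, of which 23 were measured. Of these, 1 fell and 0 rose in limma, 4 had an unadjusted p under 0.05, and the median difference was 0.07. These shares, 4.35% called and 17.4% unadjusted, lay below the 5.21% and 19.1% of all genes. The 1 that fell was Siah2, a ubiquitin ligase known to target EGLN proteins for degradation, with signals of 8.17, 8.12 and 7.88 on the shRras2 arrays, against 8.57, 8.39 and 8.44 on the pLKO arrays. Its difference of -0.41 ± 0.10 lay at the threshold (SE; limma adjusted p = 0.0498) and passed in 0 of the 6 fits without 1 array. Vhl, the recognition subunit that binds hydroxylated HIF, differed by 0.23 ± 0.07 (SE; limma adjusted p = 0.127). Arnt differed by 0.10 ± 0.09, Hif1an, the asparagine hydroxylase gene of HIF, by -0.06 ± 0.08, and Epas1, which encodes HIF-2 alpha and was dim in both groups, by 0.19 ± 0.10 (SE). None of these 4 passed (limma adjusted p = 0.127 to 0.766).

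A wider list of genes known to be raised in hypoxia held 66 names beside the 10, of which 62 were measured. In it 23 genes had an unadjusted limma p under 0.05 (37.1%, against 19.1% of all genes), 14 lower and 9 higher. After adjustment 5 genes fell, 2 rose and 55 did not pass, 11.3% called against 5.21% of all genes. The median difference was -0.06. The falls were in Tfrc, the transferrin receptor gene (-0.89 ± 0.14), Pfkl, a phosphofructokinase gene (-0.58 ± 0.11), Ak4, a mitochondrial adenylate kinase gene (-0.54 ± 0.12), Pdk1, which encodes a kinase that holds back pyruvate entry into mitochondria (-0.52 ± 0.10), and Slc2a1, the GLUT1 glucose transporter gene (-0.38 ± 0.08, all SE). The rises were in Lox, the lysyl oxidase that cross-links collagen (0.86 ± 0.10), and Ccng2, a cyclin gene of non-cycling cells (0.58 ± 0.09). Limma adjusted p-values of these 7 ran from 0.00212 to 0.0378. Tfrc, Lox and Ccng2 passed in all 6 fits without 1 array, Pdk1 and Pfkl in 2, and Slc2a1 and Ak4 in 1. Pdk1 and Ak4 lay below the negative-control percentile in both groups.

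Tfrc, the largest of these falls, had signals of 8.83, 9.43 and 9.00 on the shRras2 arrays, against 9.95, 9.98 and 9.98 on the pLKO arrays, again with replicate 5 nearest the pLKO arrays. Lox had signals of 12.49, 12.33 and 12.50 on the shRras2 arrays, against 11.57, 11.71 and 11.44 on the pLKO arrays. These 2 genes, both known to be raised by hypoxia, moved in opposite directions, and are the largest fall and the largest rise of the list. Of its 62 measured genes 40 had a negative and 22 a positive difference, against 10378 and 9127 of all genes. Among the 62, 20 lay below the negative-control percentile in both groups. The glycolytic genes Pgk1 and Ldha differed by -0.33 ± 0.09 and -0.31 ± 0.08 (SE) and did not pass (limma adjusted p = 0.082 and 0.0557). Vegfa, the angiogenic factor often read as a HIF target, differed by -0.11 ± 0.09 (SE; limma adjusted p = 0.586, 95% interval -0.32 to 0.10). Without shRras2 replicate 4 or 6 or pLKO replicate 3 the list had 3 calls, and without pLKO replicate 2 it had 4. It had 5 without pLKO replicate 1 and 8 without shRras2 replicate 5. The count of called genes was 11 when the dimmest 30% of genes were left out and 18 with the variance trend and robust settings, with Ldha and Pgk1 among the added falls in both.

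**Figure D4:**
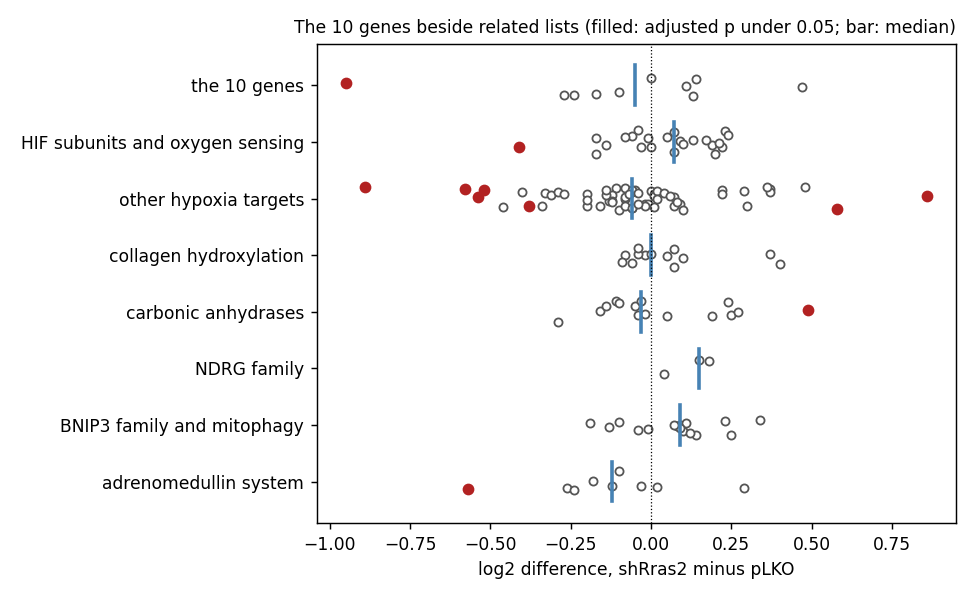
Log2 difference, shRras2 minus pLKO (horizontal axis), for the 10 genes and for the measured genes of 7 related lists; each point is 1 gene, filled red where the limma adjusted p is under 0.05, and the blue bar is the list's median. Egln3 at -0.95 and Tfrc at -0.89 lie farthest to the left and Lox at 0.86 farthest to the right, while the list medians lie between -0.12 and 0.15.

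The relatives of single members were followed in the same way. Among 13 genes of collagen hydroxylation and its helpers 0 passed in limma and 2 had an unadjusted p under 0.05 (15.4%, against 19.1% of all genes), Plod2, a procollagen lysyl hydroxylase gene (0.37 ± 0.09, SE; adjusted p = 0.0507), and P3h2, a prolyl 3-hydroxylase gene (0.40 ± 0.11; adjusted p = 0.0716). P4ha2, the paralog of P4ha1, differed by -0.02 ± 0.10 (SE; limma adjusted p = 0.94). Among 15 further carbonic anhydrase genes, 13 of them below the negative-control percentile in both groups, Car11 alone rose (6.67% of the list called, against 5.21% of all genes), by 0.49 ± 0.10 (SE; limma adjusted p = 0.0308), and passed in 1 of the 6 fits without 1 array. Car11 encodes a relative of the enzymes without catalytic activity and was dim in both groups. Car12, the other hypoxia-linked membrane form, differed by -0.05 ± 0.10.

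Among the 3 NDRG relatives 0 passed in limma and 0 had an unadjusted p under 0.05, with Ndrg2 at 0.18 ± 0.11 (SE; adjusted p = 0.456). Of the 3, 2 lay below the negative-control percentile in both groups, Ndrg2 and Ndrg4. Among 16 BNIP3 relatives and mitophagy genes 0 passed in limma and 4 had an unadjusted p under 0.05 (25.0%, against 19.1% of all genes). Bnip3l, the closest relative of Bnip3, differed by 0.09 ± 0.08 (SE; limma adjusted p = 0.604), with a 95% interval of -0.09 to 0.26. In the adrenomedullin system 1 of 9 genes fell (11.1%, against 2.22% of all genes lower), a single gene, the receptor gene Calcrl, with signals of 6.91, 7.10 and 6.80 on the shRras2 arrays, against 7.63, 7.37 and 7.51 on the pLKO arrays. The Calcrl difference was -0.57 ± 0.10 (SE; limma adjusted p = 0.018), in a range below the negative-control percentile, and passed in 2 of the 6 fits without 1 array. Of the 9 genes of this list, 7 lay below that percentile in both groups. The part that the muscle markers given above play in any of these results was not tested.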

How the data were processed

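Each array has 1 column of log2 values, which the authors deposited after RMA, run with R 3.6.3 according to the submitters' processing notes. The method subtracts background, gives all arrays the same distribution and combines the probes of a set, and it compresses differences of dim genes. For other upstream settings the sources used here give nothing. The platform annotation gave 1 symbol to 19572 of 22206 transcript probe sets, and all their Entrez identifiers matched RefSeq. For 55 genes with several probe sets the one with the highest mean was kept. The groups were compared two-sided, without covariates, by lmFit and eBayes of limma (version 3.58.1, R 4.3.3), with Benjamini-Hochberg adjustment over 19505 genes and a threshold of 0.05; differences are shRras2 minus pLKO. Precision is limited by the number of arrays (median SE 0.0961). The script was tested on simulated data. Members, lists, tests and the naming rule were chosen with earlier results of these data known. The rule named the members, Rras2, a fixed set of pathway genes, up to 4 rises and 4 falls per list and the 3 profiles nearest Egln3. Plod2 and P3h2 fall outside it and were chosen after their values were seen, and 12 listed names without a probe set were not analysed here. Some list names occur in more than 1 list. Alternatives were another quantile normalization, median centring, a filter on dim genes, averaged or all probe sets, trend and robust settings, array weights and leaving out each array.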

Additional observations from a re-analysis of the deposited data

How the results depend on the processing

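The directions of Rras2 and Egln3 and their calls held under all 7 alternatives and all 6 fits without 1 array, with Egln3 between -1.08 and -0.85 and Rras2 between -1.59 and -1.29. Over all 10 genes 120 of 128 refits kept direction and side of the threshold. Filtering dim genes, averaging or testing all probe sets, and trend and robust settings left the differences of Rras2 and the members they held unchanged. In those refits only the adjusted p could differ, so their unchanged directions are no separate check. With trend and robust settings 1908 genes passed, and leaving out 1 array gave 392 to 1136, the highest without shRras2 replicate 5 and 392 to 589 without each of the other 5 in turn. The number of the 10 genes past the threshold was 3 with trend and robust settings (Ndrg1 and P4ha1 added), 2 with array weights (Ndrg1 added) and 1 to 2 without 1 array. Egln2, near 0 throughout, was -0.04 after median centring and -0.03 to 0.02 without 1 array, and Car9 was -0.14 to 0.27 without 1 array. For the Egln3 change minus that of Egln1 and of Egln2, leaving out 1 array gave -0.97 to -0.75 and -1.09 to -0.82. Trend and robust settings gave 3 calls in the oxygen-sensing list, 18 among the other hypoxia targets, 2 in collagen hydroxylation, 3 in mitophagy and 2 in the adrenomedullin system. Leaving out the dimmest 30% of genes gave 11, 2 and 2 in the hypoxia target, collagen and adrenomedullin lists. Array weights gave 1 in the collagen list, and testing every transcript probe set gave 0 in the oxygen-sensing list. Without 1 array the oxygen-sensing list had 0 calls in each fit, the hypoxia targets 3 to 8, and the carbonic anhydrases and the adrenomedullin system 0 to 1 each. The cause of these shifts was not tested, beyond the smaller number of genes or arrays that some settings use. No paired analysis was possible because the groups share no replicate number. Car9, Adm and Ankrd37 lie within the range of the negative controls, which limits what their values can show.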
